A study of Mus musculus with 16 samples.

Results

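Genes of nucleotide, serine and one-carbon synthesis were followed across 8 murine B cell lymphomas. The members were 33 genes chosen by symbol, and every array probe annotated with one of those symbols was taken. A probe was named for 29 of the 33 genes, and 27 of them had a probe tested, out of 7665 genes tested in all. The study profiled total RNA on Illumina bead arrays, on which each probe's brightness is averaged over many beads, and compared lymphomas of 2 genotypes. Eµ-Myc mice, of strain C57B6, carry a Myc transgene under the immunoglobulin heavy chain enhancer Eµ, which is active in B lineage cells, and they gave 4 tumours (here Eµ-Myc tumours 1 to 4). The other 4 tumours (here Wrn tumours 1 to 4) came from Eµ-Myc mice of the same strain in which both copies of Wrn are the Δhel allele, which removes a stretch of the helicase domain from the RecQ helicase mutated in Werner syndrome. Both groups therefore carry the transgene, and there was no normal B cell sample among those analysed. Each title holds one of the letters E and L, which the labels do not explain. The E tumours were numbers 1 and 3 of the Eµ-Myc group and numbers 2 and 4 of the Wrn group, and the remaining 4 were L. The labels give neither the age of the mice nor whether each tumour came from a separate mouse, so the p-values reflect the spread among these samples alone, which may be technical.

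Dividing cells make purine nucleotides by building the ring on ribose phosphate, and pyrimidine nucleotides by making orotate first and joining it to ribose phosphate afterwards. Serine made from a glycolytic intermediate, or taken up, gives its side-chain carbon to folate, and the folate-bound carbon is used for the purine ring and for thymidylate. Ribonucleotide reductase then makes deoxynucleotides, and salvage enzymes recover bases and nucleosides. Many of these genes are known Myc targets in other settings, where Myc binds the E-box CACGTG, and serine synthesis genes are known targets of the stress factor Atf4.

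The 250 bases before the start of 5 members named in the results on Myc signal are shown. Gart and Mthfd1 had the lowest p-values of the members in the fit on Myc signal, and Tyms had the lowest slope. Atic, Nme1 and Tyms hold the E-box, printed in capitals in the sequences below. They are RefSeq sequences of GRCm38.p6, written 5′ to 3′ along the gene, from chr16:91646973-91647222 on the minus strand for Gart, chr12:76254982-76255231 on the plus strand for Mthfd1, chr1:71556906-71557155 on the plus strand for Atic, chr11:93968273-93968522 on the minus strand for the more upstream of 2 overlapping Nme1 windows, and chr5:30073626-30073875 on the minus strand for Tyms.
Gart: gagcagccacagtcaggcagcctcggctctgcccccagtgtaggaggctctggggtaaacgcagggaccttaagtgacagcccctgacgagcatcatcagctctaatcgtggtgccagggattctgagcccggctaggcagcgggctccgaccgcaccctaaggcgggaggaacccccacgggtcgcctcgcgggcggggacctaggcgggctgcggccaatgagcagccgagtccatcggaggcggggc
Mthfd1: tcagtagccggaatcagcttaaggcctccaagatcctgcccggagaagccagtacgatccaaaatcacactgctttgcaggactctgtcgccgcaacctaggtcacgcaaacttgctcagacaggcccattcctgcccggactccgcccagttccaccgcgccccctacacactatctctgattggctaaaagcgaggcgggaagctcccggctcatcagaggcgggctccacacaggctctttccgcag
Atic: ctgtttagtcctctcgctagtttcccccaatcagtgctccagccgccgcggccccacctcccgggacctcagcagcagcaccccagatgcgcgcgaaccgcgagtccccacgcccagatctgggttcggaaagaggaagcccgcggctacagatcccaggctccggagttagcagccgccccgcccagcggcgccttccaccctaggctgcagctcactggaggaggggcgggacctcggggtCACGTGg
Nme1: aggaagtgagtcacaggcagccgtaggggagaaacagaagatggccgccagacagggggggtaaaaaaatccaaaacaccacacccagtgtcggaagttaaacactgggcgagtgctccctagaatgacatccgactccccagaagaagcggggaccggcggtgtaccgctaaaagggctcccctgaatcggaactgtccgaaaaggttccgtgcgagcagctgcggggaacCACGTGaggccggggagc
Tyms: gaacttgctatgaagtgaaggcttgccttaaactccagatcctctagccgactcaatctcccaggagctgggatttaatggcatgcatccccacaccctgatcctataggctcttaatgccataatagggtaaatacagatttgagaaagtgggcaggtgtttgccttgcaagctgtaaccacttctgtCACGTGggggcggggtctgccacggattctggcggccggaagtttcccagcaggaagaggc
Relative to the start, the capitals begin at −7 in Atic, −18 in Nme1 and −61 in Tyms. The windows searched ran from 250 bases before to 50 after each start, on both strands, and 31 of the 33 members had at least 1. CACGTG occurred in 5 of the 31 (Atic, Impdh2, Nme1, Paics and Tyms; 16.1%), against 2187 of all 27025 genes with a window (8.09%). The letters TGATGNAA, a form of the composite element bound by Atf4, occurred in 1 member, Prps1 (3.2%, against 4.51% of all genes). The E2F letters TTTCGCGC or TTTGGCGC occurred in 0 of 31 members, against 0.93% of all genes. Paics, on the plus strand, and Ppat, on the minus strand, have starts 276 bases apart, and each is transcribed toward and past the other's start.

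Each array gave signal above background for 10607 to 11369 of 25697 probes, with a median signal of 49.9 to 52.8 before normalization. Values below are neqc-normalized log2 signals, and since each probe binds with its own strength they compare tumours, not genes. Of 12 B cell markers, 10 were tested and were detected in every tumour, with a mean log2 signal of 9.13 to 9.66 in Eµ-Myc tumours and 9.40 to 10.41 in Wrn tumours, while the transcription factor Pax5 was detected in none. Myc itself read 9.08, 6.92, 8.77 and 8.91 in Eµ-Myc tumours 1 to 4 and 8.77, 9.13, 8.50 and 8.73 in Wrn tumours 1 to 4. Eµ-Myc tumour 2 was thus far below the other 7, which lay between 8.50 and 9.13. Markers of T cells and of red cells were highest in that same tumour. The mean of 5 T cell markers was 7.87 there, against 5.14 to 6.27 in the others, with Cd4 and Cd8a detected in no tumour. The mean of 4 erythroid markers was 9.81, against 6.06 to 8.71. The Wrn probe read 7.56 to 8.45 in Eµ-Myc tumours and 7.03 to 7.48 in Wrn tumours, a difference of −0.75 ± 0.22 (SE; limma adjusted p = 0.973), and no source used here says whether this probe lies in the deleted stretch, so it is no check of the genotype. In whole tumours, fewer cells of a type and less RNA per cell cannot be told apart.

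**Figure D1:**
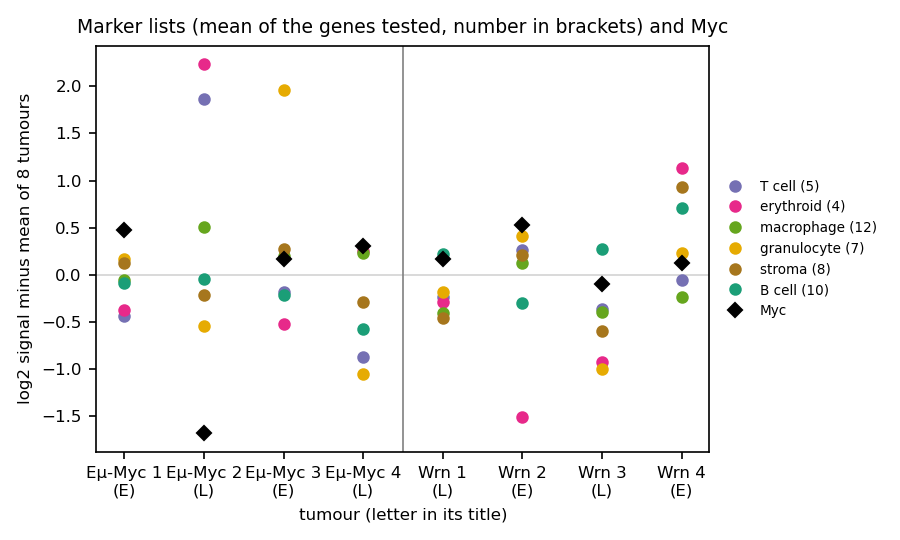
Mean log2 signal of the tested genes of 6 marker lists (coloured points) and of Myc (black diamonds) in each of the 8 tumours, each minus its own mean over the tumours. Eµ-Myc tumour 2 combines the lowest Myc signal, 6.92, with the highest T cell and erythroid means, 7.87 and 9.81.

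The members were present in all of these lymphomas: each of the 27 tested was detected on all 8 arrays. The probe of Psph, the phosphatase that completes serine synthesis, was detected on 0 arrays, and that of Paics, which carries out a pair of consecutive steps of the purine ring, on 1, so neither was tested. No probe was named for Pfas, Impdh2, Gmps or Mthfd1l. The standard deviation over the 8 tumours had a median of 0.33 over the 27 members (0.15 for Ctps to 0.65 for Shmt2), against 0.32 over all genes tested. Wrn tumour 1 was the highest of the 8 for 7 members (and for 15.3% of all genes), and Eµ-Myc tumour 2 and Wrn tumour 4 were each the lowest for 6 (and for 15.0% and 12.2% of all genes). The members did not vary as 1 block: in Eµ-Myc tumour 2 purine synthesis genes averaged −0.35 relative to their own means over the tumours and serine and one-carbon genes −0.32, while salvage genes averaged 0.11. In Eµ-Myc tumour 4 the genes of deoxynucleotide supply averaged −0.48 and purine synthesis genes 0.11.

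**Figure D2:**
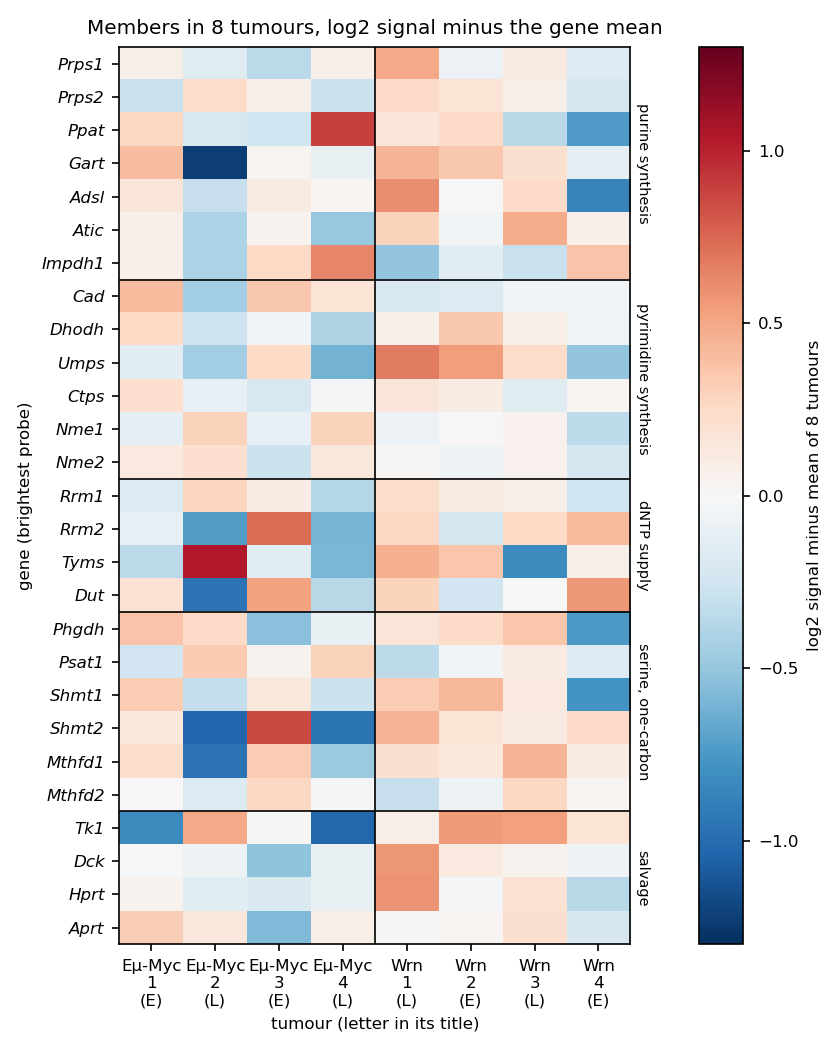
Log2 signal of the 27 tested members (rows, by role) in each of the 8 tumours (columns), minus the gene's mean over the tumours; red is higher and blue lower. Gart, Shmt2, Mthfd1 and Dut are deep blue in Eµ-Myc tumour 2, where they read 10.13, 7.41, 8.80 and 5.72, and Tyms is deep red there at 10.53.

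The first comparison asked whether loss of the Wrn helicase domain goes with a different level of these genes. None of the 27 members passed the test between genotypes (limma, Benjamini-Hochberg adjusted over all probes tested), and in all of the genes tested 2 did (0.0261%). Of the members 0 had an unadjusted p under 0.05, against 3.85% of all genes, and in 0 did the 4 tumours of one genotype all lie outside the range of the other, against 2.1% of all genes. In 19 of the 27 the mean was higher in Wrn tumours, and the median difference was 0.09 against 0.01 over all genes. Standard errors ran from 0.17 for Ctps to 0.38 for Tyms. The Tk1 difference of 0.67 ± 0.32 (SE) had a limma adjusted p of 0.973. Differences well above the standard error were thus not resolved with 4 tumours a group. Every adjusted p of a member was at least 0.973.

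Purine synthesis is opened by Prps1 and Prps2, which make the activated ribose phosphate. Prps1 ran from 10.02 to 10.45 in Eµ-Myc tumours and from 10.21 to 10.87 in Wrn tumours, and Prps2 from 6.67 to 7.19 and from 6.73 to 7.20. Ppat, the committing enzyme, read 9.03, 8.55, 8.50 and 9.65 in Eµ-Myc tumours 1 to 4 and 8.92, 9.01, 8.40 and 8.03 in Wrn tumours 1 to 4. Eµ-Myc tumour 4 was the highest and Wrn tumour 4 the lowest, and the rest overlapped, for a difference of −0.34 ± 0.30 (SE; limma adjusted p = 0.973). Without Eµ-Myc tumour 4 it was −0.11, and without Wrn tumour 4 it was −0.16. Gart carries 3 activities of the pathway, among them a folate-dependent formyl transfer. Its signals were 11.76, 10.13, 11.39 and 11.26 in Eµ-Myc tumours 1 to 4 and 11.80, 11.70, 11.56 and 11.24 in Wrn tumours 1 to 4, so that 1 tumour, Eµ-Myc 2, lay apart. Atic adds the last formyl group and closes the ring. It read 10.16, 9.68, 10.14 and 9.60 in Eµ-Myc tumours 1 to 4 and 10.39, 10.06, 10.57 and 10.16 in Wrn tumours 1 to 4. The genotypes met only at their edges, between 10.06 and 10.16, and the difference was 0.40 ± 0.20 (SE; limma adjusted p = 0.973), with 0.37 and 0.41 from its other 2 probes. Adsl, which cleaves off fumarate at 2 steps of adenylate synthesis, ran from 8.36 to 8.82 in Eµ-Myc tumours and more widely, from 7.79 to 9.27, in Wrn tumours. Impdh1, a dehydrogenase on the guanylate branch, had a mean of 7.79 ± 0.44 (SD, n = 4) in Eµ-Myc and 7.51 ± 0.38 (SD, n = 4) in Wrn tumours.

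Among pyrimidine genes, Cad, whose protein joins the first 3 steps, read 10.26, 9.39, 10.19 and 10.02 in Eµ-Myc tumours 1 to 4 and 9.64, 9.67, 9.78 and 9.81 in Wrn tumours 1 to 4. Apart from Eµ-Myc tumour 2 every Eµ-Myc tumour was above every Wrn tumour. The difference was −0.24 ± 0.21 (SE; limma adjusted p = 0.973), and without Eµ-Myc tumour 2 it was −0.43 with an adjusted p of 0.957. Dhodh, the mitochondrial dehydrogenase that makes orotate, averaged 8.66 ± 0.28 in Eµ-Myc and 8.88 ± 0.17 in Wrn tumours (SD, n = 4 each). Umps, which turns orotate into uridylate, read 8.83, 8.52, 9.24 and 8.37 in Eµ-Myc tumours 1 to 4 and 9.65, 9.52, 9.22 and 8.47 in Wrn tumours 1 to 4. Wrn tumours 1 and 2 lay above all Eµ-Myc tumours and the other 2 within their range. Its 3 probes gave differences of 0.47, 0.35 and 0.37, none of which passed the test. Ctps, which aminates uridine to cytidine triphosphate, was the steadiest member, between 11.74 and 12.16 in all 8 tumours. Nme1 and Nme2, kinases that add the last phosphate to nucleoside diphosphates, stayed within 13.37 to 14.01 and 13.39 to 13.89, and these neighbouring genes are closely related in sequence, so how far their probes share signal is uncertain. The dimmest of 3 Nme2 probes gave a genotype difference of 0.02, opposite in sign to the −0.11 of the brightest.

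All 4 genes of deoxynucleotide and thymidylate supply had a higher mean in Wrn tumours, by 0.03 to 0.35, and none passed the test. Rrm1, the large subunit of ribonucleotide reductase, stayed between 9.80 and 10.45 in all tumours. Rrm2, its small subunit in S phase, read 7.64, 7.02, 8.47 and 7.15 in Eµ-Myc tumours 1 to 4 and 8.02, 7.52, 8.01 and 8.16 in Wrn tumours 1 to 4. The lowest 2 and the highest value were all in Eµ-Myc tumours. Tyms, which makes thymidylate with a folate-bound carbon, read 9.14, 10.53, 9.33 and 8.89 in Eµ-Myc tumours 1 to 4 and 9.95, 9.85, 8.66 and 9.57 in Wrn tumours 1 to 4, with both genotypes spread over more than 1 log2 unit. A dimmer Tyms probe gave a genotype difference of −0.07, against 0.03 from the brightest. Dut, which removes deoxyuridine triphosphate, read 6.86, 5.72, 7.20 and 6.32 in Eµ-Myc tumours 1 to 4 and 6.97, 6.43, 6.69 and 7.24 in Wrn tumours 1 to 4. Eµ-Myc tumour 2 was the lowest of the 8 and the rest overlapped.

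Of the serine pathway, Phgdh, which takes carbon out of glycolysis, ran from 9.17 to 10.08 in Eµ-Myc and from 8.96 to 10.07 in Wrn tumours. Psat1, the aminotransferase after it, read 10.53, 11.11, 10.82 and 11.07 in Eµ-Myc tumours 1 to 4 and 10.44, 10.74, 10.89 and 10.60 in Wrn tumours 1 to 4. The ranges overlapped, with a difference of −0.22 ± 0.19 (SE; limma adjusted p = 0.973). Shmt1 and Shmt2 move the carbon from serine to folate in the cytosol and the mitochondrion. Shmt1 ran from 7.60 to 8.25 in Eµ-Myc and from 7.13 to 8.35 in Wrn tumours. Shmt2 was the most variable member and read 8.58, 7.41, 9.30 and 7.50 in Eµ-Myc tumours 1 to 4, against 8.89, 8.62, 8.55 and 8.69 in Wrn tumours 1 to 4. Eµ-Myc tumours 2 and 4 lay below all Wrn tumours and Eµ-Myc tumour 3 above them, while the Wrn tumours were close together. Mthfd1, a cytosolic enzyme with 3 activities that interconverts one-carbon folates, read 9.99, 8.80, 10.09 and 9.28 in Eµ-Myc tumours 1 to 4 and 9.97, 9.90, 10.20 and 9.86 in Wrn tumours 1 to 4. The low pair was again Eµ-Myc tumours 2 and 4. Mthfd2, the mitochondrial dehydrogenase and cyclohydrolase, stayed between 7.57 and 8.13.

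All 4 salvage genes also had a higher mean in Wrn tumours, by 0.02 to 0.67. Thymidine kinase Tk1 was the member nearest to the threshold and read 8.77, 10.08, 9.60 and 8.57 in Eµ-Myc tumours 1 to 4 and 9.67, 10.15, 10.13 and 9.77 in Wrn tumours 1 to 4. The Wrn tumours were close together and high, and the Eµ-Myc tumours ran from below them into their range. The difference was 0.67 ± 0.32 (SE; limma adjusted p = 0.973), while its other tested probe gave 0.29. Without Eµ-Myc tumour 2, which was the highest of its group, it was 0.95, at an unadjusted p under 0.05 and an adjusted p of 0.957. Deoxycytidine kinase, Dck, read 6.59, 6.52, 6.06 and 6.49 in Eµ-Myc tumours 1 to 4 and 7.15, 6.72, 6.63 and 6.52 in Wrn tumours 1 to 4. Wrn tumour 4 met the upper Eµ-Myc values, and the difference was 0.34 ± 0.20 (SE; limma adjusted p = 0.973). Hprt and Aprt, which salvage purine bases, ran from 12.20 to 13.15 and from 12.06 to 12.96 over the 8 tumours. The brightest Hprt probe gave a genotype difference of 0.19 and its other 2 gave −0.20 and −0.04.

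**Figure D3:**
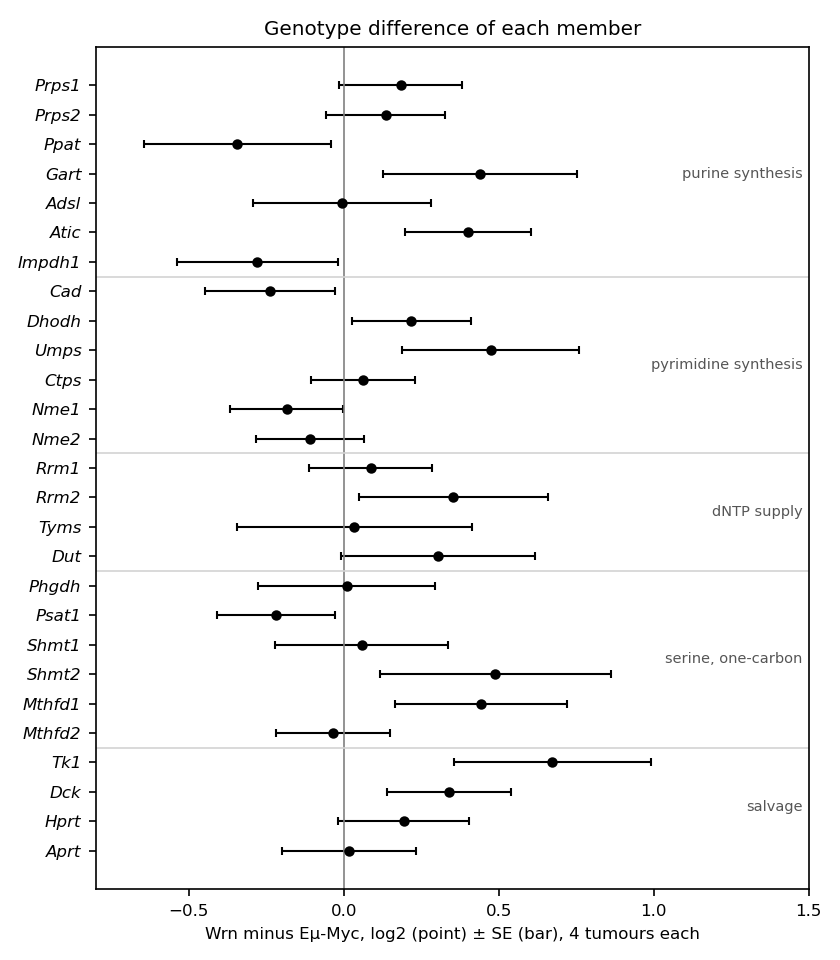
Difference in mean log2 signal (Wrn minus Eµ-Myc, 4 tumours each) of each tested member, with its standard error from limma as a bar, grouped by role. The points run from −0.34 for Ppat to 0.67 for Tk1, and no member passed the test.

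The other genes of these pathways gave a like picture between genotypes, with 0 of 51 tested in 6 lists passing after adjustment. Those under an unadjusted 0.05 were 2, against 3.85% of all genes. Ctps2, a second CTP synthase, read 5.69 to 6.72 in Eµ-Myc and 6.28 to 7.21 in Wrn tumours, a difference of 0.66 ± 0.29 (SE; limma adjusted p = 0.973). Rrm2b, the reductase subunit induced by p53, read 7.23 to 7.82 in Eµ-Myc and 7.86 to 8.40 in Wrn tumours, ranges that did not overlap, a difference of 0.54 ± 0.21 (SE; limma adjusted p = 0.973). Purine conversion and breakdown genes outside the members were more often lower, 10 of 13, with a median of −0.10, while 11 of 17 proliferation genes were higher, at a median of 0.07. Markers of other cells stood as follows beside these values: 12 of 12 macrophage markers (mean 8.20 to 8.76 in Eµ-Myc, 7.85 to 8.37 in Wrn tumours; Itgam detected in none) and 4 of 4 erythroid markers (7.05 to 9.81 and 6.06 to 8.71; Klf1 detected in none) had a lower mean in Wrn tumours, and 10 of 10 B cell markers a higher one. Their part in the members' differences was not tested.

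The second comparison set the 4 L tumours against the 4 E tumours with genotype in the model, since the letter is balanced over the genotypes. Again 0 of 27 members passed, against 1 of all genes (0.013%), and 0 had an unadjusted p under 0.05, against 7.62% of all genes. By the brightest probes the letters did not overlap in 0 members, against 5.15% of all genes. In a dimmer Hprt probe they did not overlap, at 7.71 to 8.05 in E and 8.16 to 8.70 in L tumours. In 14 of 27 the mean was higher in L, with a median difference of 0.04 against 0.00 over all genes (−0.0042). The lowest members were Shmt2 at −0.71 ± 0.32 (SE; limma adjusted p = 0.664), Dut at −0.51 ± 0.28 and Mthfd1 at −0.40 ± 0.26. Those with the highest moderated t were Nme1 at 0.29 ± 0.17, Prps1 at 0.26 ± 0.19 and Nme2 at 0.22 ± 0.17, while Phgdh had the highest difference, 0.34 ± 0.28. Without Eµ-Myc tumour 2 Dut was at −0.29 and Mthfd1 at −0.18, and without Eµ-Myc tumour 3 Dut was at −0.34, Mthfd1 at −0.26 and Shmt2 at −0.41. The 4 salvage genes were all higher in L, by 0.04 to 0.27. For Hprt, whose brightest probe gave 0.27, the other 2 probes gave 0.54 and 0.52 both at an unadjusted p under 0.05 (limma adjusted p = 0.631 and 0.604). Signs differed between probes for Atic (−0.07, against 0.25 and 0.31), for Nme2 (0.22, against −0.03 from its dimmest) and for Tyms (0.04, against −0.05 and −0.36 from 2 others).

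Of the 51 other pathway genes 0 passed and 1 was under an unadjusted 0.05, against 7.62% of all genes. The reduced folate carrier Slc19a1 was lower in L, at −0.59 ± 0.21 (SE; limma adjusted p = 0.603), reading 9.90 to 10.78 in L and 10.72 to 11.01 in E tumours. Among proliferation genes the replication clamp Pcna was higher, at 0.49 ± 0.21 (SE; limma adjusted p = 0.659). All 4 pentose phosphate genes tested, which supply the ribose, had a lower mean in L, with a median of −0.26, and 0 were under an unadjusted 0.05. Granulocyte and stroma markers went with the letter: 7 of 7 granulocyte markers were lower in L, 5 of them at an unadjusted p under 0.05, with means of 4.82 to 5.69 in L and 6.04 to 7.83 in E tumours. Of the stroma markers 8 of 8 were lower, with means of 6.57 to 6.95 in L and 7.29 to 8.09 in E tumours. No gene of these 2 lists with a probe was undetected in all 8 tumours. Erythroid markers were higher in L in 4 of 4, by a median of 0.71, with means over the markers of 6.65 to 9.81 in the L and 6.06 to 8.71 in the E tumours. T cell markers were higher in 4 of 5, by a median of 0.42, with means of 5.14 to 7.87 in the L and 5.57 to 6.27 in the E tumours. In both lists the highest L mean was that of Eµ-Myc tumour 2. The other L tumours read 6.65 to 7.82 for erythroid and 5.14 to 5.76 for T cell markers, within or below the E range. Klf1 of the erythroid list and Cd4 and Cd8a of the T cell list were detected in 0 tumours. The part of these 4 lists in the values of Shmt2, Dut and Mthfd1 was not tested.

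The third comparison followed each member along the Myc signal of the tumours, as the change in its log2 signal per log2 unit of Myc. Neither genotype nor letter was in the model. Here 0 of 27 members passed after adjustment, against 0.117% of all genes, and 3 had an unadjusted p under 0.05 (11.1%, against 9.33% of all genes), a share near the background. The slope was above 0 in 18 of 27, with a median of 0.10 against 0.01 over all genes. Gart had the highest slope, 0.70 ± 0.14 (SE; limma adjusted p = 0.0987), and its second probe gave 0.71. The other 2 under 0.05 were Mthfd1 at 0.49 ± 0.18 (adjusted p = 0.377) and Dut at 0.47 ± 0.20 (adjusted p = 0.487). Shmt2 had a slope of 0.52 ± 0.26 from its brightest probe and 0.48 from the other, the latter at an unadjusted p under 0.05 (limma adjusted p = 0.251). At the low end stood Tyms at −0.50 ± 0.24, Tk1 at −0.36 ± 0.26 and Psat1 at −0.20 ± 0.14 (adjusted p = 0.58, 0.837 and 0.814). Probes disagreed in sign for Tyms, where one of the others had a slope of 0.20, for Nme2 (−0.11, against 0.12 from its dimmest) and, close to 0, for Atic (0.16, against −0.03 from one of the others) and Hprt (0.06, against −0.0027 from one of the others).

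The slopes of Gart, Mthfd1, Dut and Tyms depended on Eµ-Myc tumour 2, the only tumour with a Myc signal under 8.50. Without it Gart had a slope of 0.34, Dut of −0.62, Mthfd1 of −0.48 and Tyms of 0.80, each with a limma adjusted p of 1. The slopes of Tk1 (−1.09), Psat1 (−0.16) and the second Shmt2 probe (0.74) kept their sign without it, also at an adjusted p of 1. In that fit 0 members were under an unadjusted 0.05, against 2.75% of all genes, and 13 of 27 slopes were above 0. Over the 8 tumours Gart correlated with Myc at Pearson r = 0.91 (exact permutation p = 0.0293, two-sided, Benjamini-Hochberg adjusted p = 0.648 over 11022 probes) and Spearman rho = 0.52 (exact permutation p = 0.197, adjusted p = 0.924). Without Eµ-Myc tumour 2 alone the r of Gart was 0.32, while without Wrn tumour 2 alone its slope stayed at 0.70. Leaving out the 2 tumours farthest from the median Myc signal, Eµ-Myc 2 and Wrn 2, brought the r of Gart to 0.17. Over the members 13 of 27 kept the sign of their r and the others did not. Cad stayed at 0.65, Ctps went from 0.45 to 0.65, Ppat from 0.33 to 0.60 and Tk1 from −0.42 to −0.89, each over the remaining 6 tumours. The T cell and red cell markers that were highest in Eµ-Myc tumour 2 had slopes below 0 in 5 of 5 and 4 of 4 genes, and their part in the members' slopes was not tested. Of the 5 members with CACGTG in their window, Impdh2 and Paics were not tested, and Atic, Nme1 and Tyms, shown above, had slopes of 0.16, −0.16 and −0.50. The windows of Gart, Mthfd1 and Dut hold no CACGTG.

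**Figure D4:**
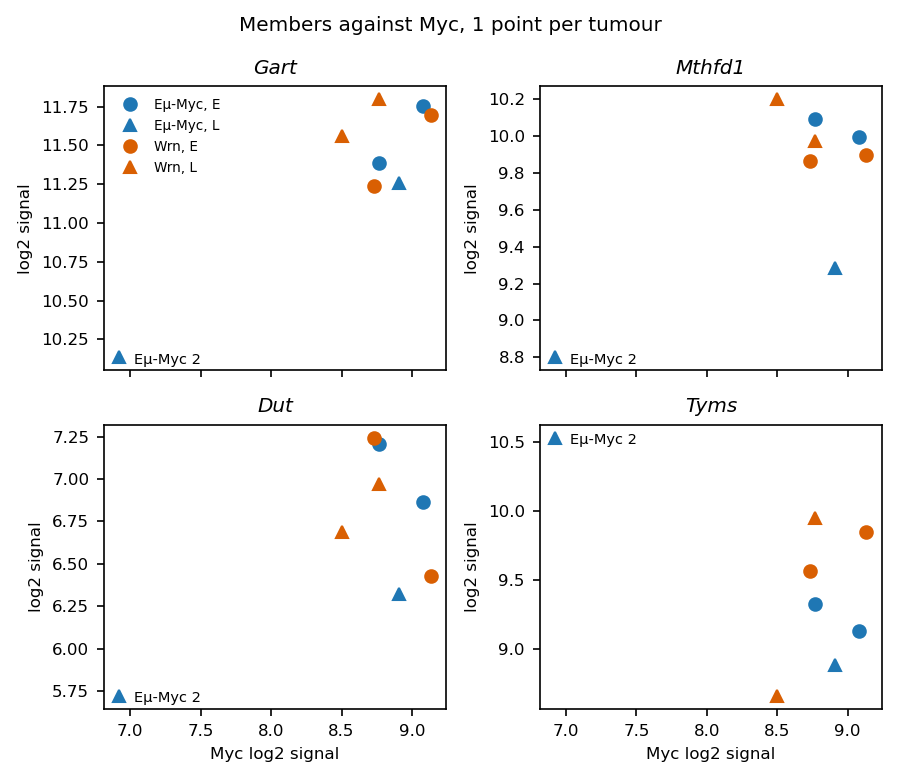
Log2 signal of Gart, Mthfd1, Dut and Tyms (vertical axes) against the log2 signal of Myc (horizontal axis), 1 point per tumour; blue is Eµ-Myc, orange Wrn, circles E and triangles L. Eµ-Myc tumour 2 stands alone at a Myc signal of 6.92, and the other 7 lie between 8.50 and 9.13 with no common trend.

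Of the 51 other pathway genes 0 passed and 8 were under an unadjusted 0.05, against 9.33% of all genes. Genes of amino acid handling were among them. Of 5 tested genes of serine and related amino acid handling, 3 were under an unadjusted 0.05: the neutral amino acid carriers Slc1a4 at 0.69 ± 0.20 and Slc1a5 at 0.44 ± 0.17, and asparagine synthetase Asns at 0.68 ± 0.27 (limma adjusted p = 0.241, 0.401 and 0.435). Without Eµ-Myc tumour 2 these 3 slopes were 1.95, 0.30 and 1.35. Asns read 11.00, 9.12, 9.03 and 10.80 in Eµ-Myc tumours 1 to 4 and 10.48, 10.61, 10.38 and 9.91 in Wrn tumours 1 to 4. It was thus low in Eµ-Myc tumour 3 as well, where Myc was 8.77. Atf4 had a slope of 0.42 ± 0.17 (adjusted p = 0.464) and 0.58 without that tumour. Slc19a1 and Dld, a subunit of the glycine cleavage system, had slopes of 0.45 and 0.48 (adjusted p = 0.336 and 0.333), and without it 0.95 and −0.28. Ctps2 had a slope of 0.49, and the nucleotide kinases Ak3 and Guk1 had −0.43 and −0.36 (adjusted p = 0.519, 0.348 and 0.535); without it these were −0.18, −0.05 and 0.72. The 17 proliferation genes had a median slope of −0.02, and 0 were under an unadjusted 0.05.

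The last comparison asked whether the genotype difference was alike in E and L tumours. This contrast is also that of tumours numbered 1 and 3 against those numbered 2 and 4, so letter and number cannot be told apart in it, and each cell holds 2 tumours. In L tumours 20 of 27 members had a higher mean in Wrn, with a median difference of 0.35 against 0.00 over all genes (−0.001). In E tumours 8 of 27 did, with a median of −0.06 against 0.01. The interaction, the L difference minus the E difference, was above 0 in 19 of 27 members, with a median of 0.34 against 0.00 over all genes (−0.0038). After adjustment it passed in 0 members and in 0 of all genes (0%) with limma on the neqc values, while the deposited lumi and GUI values each gave 1 gene, no member. At an unadjusted p under 0.05 stood 5 of 27 members (18.5%) and 388 of all 7665 genes (5.06%).

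The 5 belong to one-carbon transfer, purine synthesis and the reductase. For Shmt2 the interaction was 1.55 ± 0.42 (SE), from −0.29 in E to 1.26 in L. Its second probe gave 0.65 ± 0.50, with 0.36 in L. Mthfd1 gave 1.21 ± 0.37, from −0.16 to 1.05. Adsl gave 1.14 ± 0.46, from −0.57 to 0.56, and Rrm2 gave 1.15 ± 0.48, from −0.22 to 0.93, with 1.35 from its second probe. Atic gave 0.88 ± 0.32, from −0.04 to 0.84, and its other probes gave 1.29 and 1.06, both also at an unadjusted p under 0.05. In limma each of these 5 had an adjusted p of 0.937. The members with the lowest moderated t were Tyms at −0.88 ± 0.78, Psat1 at −0.43 ± 0.37 and Impdh1 at −0.47 ± 0.52 (limma adjusted p = 0.951, 0.949 and 0.968). With 1 tumour left out the Tyms interaction ran from −1.70 (without Eµ-Myc tumour 4) to −0.06 (without Eµ-Myc tumour 2), and that of Psat1 from −0.65 (without Wrn tumour 3) to −0.20 (without Wrn tumour 1). The other Tyms probes gave −0.20, −0.34 and, opposite in sign, 0.34, and the dimmest Nme2 probe gave 0.32 against −0.08 from the brightest. In the brightest probes of Shmt2, Mthfd1, Atic and Rrm2 the low cell was the pair of Eµ-Myc L tumours, 2 and 4. Both of its values there lay below the other 6 tumours. In the second Shmt2 probe Eµ-Myc tumour 4, at 7.29, lay above Wrn tumours 3 and 4, at 7.16 and 6.95. In both dimmer Atic probes Eµ-Myc tumour 2, at 8.03 and 7.21, lay above Wrn tumour 4, at 7.91 and 7.07. For Adsl the lowest value was that of Wrn tumour 4.

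**Figure D5:**
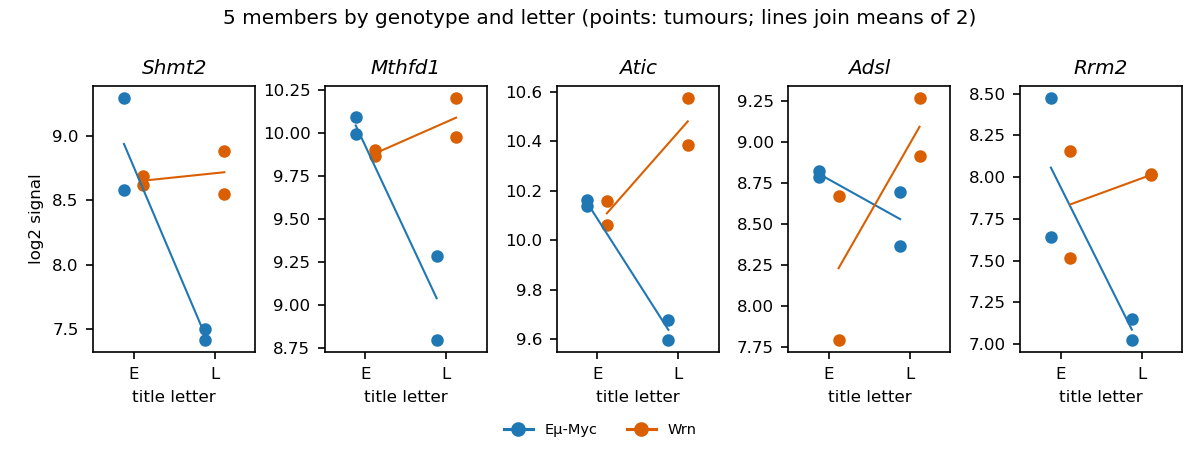
Log2 signal of Shmt2, Mthfd1, Atic, Adsl and Rrm2 in E and L tumours, 1 point per tumour, blue for Eµ-Myc and orange for Wrn; lines join the means of 2 tumours. In the brightest probes, shown here, both Eµ-Myc L tumours lie below the other 6 for all but Adsl, at 7.41 and 7.50 for Shmt2.

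Leaving out each tumour in turn left between 2 and 7 members under an unadjusted 0.05, while the share of all genes ran from 3.16% to 8.09%. The 7 were without Eµ-Myc tumour 4, where the share was 8.09%, and the 2 without Eµ-Myc tumour 3, where it was 5.17%. Shmt2 and Mthfd1 were under 0.05 in all 8 such fits, Atic in 4, Adsl in 3 and Rrm2 in 2. The lowest adjusted p of a member over these fits was 0.447. Median scaling in place of quantile normalization moved the median interaction of all genes to −0.20 and that of the members to 0.11, with Shmt2 and Mthfd1 the 2 members still under 0.05, against 6.52% of all genes in that fit, a share near the background. Proliferation genes stood on the same side in 12 of 17, with a median of 0.45. Among them the replication factors Mcm3, at 1.35 ± 0.37 (SE), and Cdc6, at 1.00 ± 0.35, were the 2 under an unadjusted 0.05. Of the 51 other pathway genes 0 passed and 5 were under an unadjusted 0.05, against 5.06% of all genes. Ctps2 was at 1.26, Ahcy, which clears S-adenosylhomocysteine, at 1.12 and the diphosphate kinase family member Nme6 at 1.08. The purine phosphorylase Pnp was at 0.84 and Xdh, which makes uric acid, at −1.03. Of Atf4 targets Chac1 was at 1.67 and Nupr1 at −1.54, on opposite sides. Each of these had a limma adjusted p of 0.937.

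Marker lists went with this contrast too. The mean of 4 erythroid markers was 7.20 and 7.05 in the Eµ-Myc E tumours, 9.81 and 7.82 in the Eµ-Myc L tumours, 6.06 and 8.71 in the Wrn E tumours and 7.28 and 6.65 in the Wrn L tumours. The mean of 5 T cell markers was 5.57 and 5.82 in the Eµ-Myc E tumours, and 6.27 and 5.95 in the Wrn E tumours. In the Wrn L tumours it was 5.76 and 5.64. The Eµ-Myc L tumours held both ends, 7.87 in tumour 2 and 5.14 in tumour 4. Interactions were below 0 in 4 of 4 erythroid, 5 of 5 T cell, 11 of 12 macrophage and 7 of 8 stroma markers. Above 0 were 6 of 7 granulocyte and 8 of 10 B cell markers. Their part in the members' interactions was not tested.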

How the data were processed

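RNA from 8 lymphomas was extracted with Trizol and RNeasy columns and copied to biotin-labelled cRNA, per the labels' protocols. Each tumour appears in 2 records, 1 per processing, and was counted once. Per the file headers, the non-normalized table gives each probe's mean bead intensity and a detection p-value on each array. The deposited lumi values are background-subtracted intensity on a linear scale (26.3% to 26.4% were below 0), and were floored at 1 and put on the log2 scale. The deposited GUI values are a score. For probes with lumi values over 1000, the square root of the score matched log2 lumi to within 0.0102, so that root was tested; the design had taken them to be linear or log2. The software versions and settings used upstream are not stated.

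The 2 kinds of table name probes differently and were joined by the probes' ranks over the 8 arrays, 25697 one to one. Symbols came from the platform annotation, updated to the gene table of GRCm38.p6: 23978 probes had 1 symbol, 0 several and 1719 none. Of the members' 50 probes 44 were tested, 10 members had several tested probes, and the brightest stood for a gene. Signals were processed with neqc (limma 3.58.1, R 4.3.3; offset 16, quantile normalization, log2), so differences of dim probes are understated. Tested were probes with a detection p under 0.01 on 4 or more arrays (11024, of which 642 had no gene name) with lmFit and eBayes, two-sided, with Benjamini-Hochberg adjusted p under 0.05 as the call. Precision is limited by the small number of arrays. The genotype, letter and Myc fits, but not the interaction, were tested on simulated data. The planted changes were larger than any member's difference or slope, so changes of the members' size were not covered. Permutation tests and figures used scipy 1.17.1 and matplotlib 3.10.9 in Python 3.11.15.

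The members, gene lists and comparisons were chosen with earlier results of these data known. Named with statistics were, per comparison, members at an unadjusted p under 0.05, the 3 with the highest and the 3 with the lowest moderated t, and up to 4 genes of each other list at that p, besides probes that disagreed in sign or by over 0.5. Per-tumour values of Umps and Rrm2 in the genotype comparison were added after values were seen. Alternatives were other background corrections, normalizations, filters, weights, covariates, probe rules and each tumour left out; those for the interaction were added after seeing the data.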

Additional observations from a re-analysis of the deposited data

Results flagged for a closer look

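Myc in Eµ-Myc tumour 2, at a log2 signal of 6.92, was the lowest of its group by a wide gap: the nearest Eµ-Myc tumour read 8.77 and the highest 9.08, so the gap took up 0.854 of the range, above Dixon's critical value for 4 samples. It was the 1 value so marked among 56 groups of 4 tumours checked, over the members and Myc, and chance marks about 1 in 20.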

How the results depend on the processing

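No member passed an adjusted p of 0.05 in any of the 4 comparisons under any alternative run. Between genotypes the members' median difference was 0.2593 without Wrn tumour 4, and leaving out each tumour in turn gave 0.0312 to 0.2593. Without Eµ-Myc tumour 3, 4 members were under an unadjusted 0.05 (Shmt2 0.86, Tk1 0.79, Rrm2 0.65 and Mthfd1 0.63; adjusted p 0.944), against 4.74% of all genes, and without Wrn tumour 2, 3 were in the letter comparison (Shmt2, Dut and Rrm2), against 8.1%. Without Eµ-Myc tumour 2 the slopes on Myc turned for Dut (-0.62; range over tumours left out -0.62 to 0.57), Mthfd1 (-0.48; -0.48 to 0.55) and Tyms (0.80; -0.62 to 0.80). With genotype in the model of the slope on Myc, 4 members were under an unadjusted 0.05, against 8.73% of all genes. They were Gart at 0.65, Mthfd1 at 0.43, Cad at 0.35 and Tk1 at -0.54 (limma adjusted p 0.181, 0.532, 0.46 and 0.424). The interaction of Impdh1 turned without Eµ-Myc tumour 4 (0.0519, range -0.9964 to 0.0519). The interaction's members at an unadjusted 0.05 numbered 3 with the deposited lumi or GUI values and 2 with median scaling (5%, 5.15% and 6.52% of all genes), and their median was 0.15 to 0.51 over tumours left out.

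With the replicate block, the members' median was 0.09 between genotypes, 0.04 between letters and 0.09 for the slope on Myc. On that slope 1 member, Gart (0.67, adjusted p 0.603), stayed under an unadjusted 0.05, against 4.93% of all genes. Tk1 between genotypes (0.67, adjusted p 0.997) and Shmt2 between letters (-0.71, adjusted p 0.784) came under it. Each was the 1 member to do so, against 3.65% and 6.38% of all genes. Tumours with the same number had deviations correlated at -0.0037, -0.18, -0.21 and -0.19, and 0 correlated best with their own number. Tumours of the same number carry opposite letters, so these correlations cannot decide whether the numbers pair the tumours. No block was possible for the interaction.

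Over all genes, calls on the Myc slope were 9, but 0 with the block, 2 with median scaling and 3 with lumi values. With probes detected on at least 1 array they were 32. Without Eµ-Myc tumour 2 the calls were 0, so those of the main fit depended on that tumour. With any other tumour left out instead they were 2 (Eµ-Myc tumour 1) to 27 (Wrn tumour 3).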
